A study of Mus musculus with 16 samples.

Results

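The translation factors and tRNA synthetases were taken as every row whose gene symbol begins with Eif1 to Eif6 or with Eef1 or Eef2, or is a synthetase symbol in "ars" or "ars2", Eprs, Farsa or Farsb. The rule found 101 genes of the 24341 measured in each library. Each library held RNA of cells from muscles of C57BL/6 mice aged 2 to 3 months, kept by flow cytometry for alpha-7 integrin and CD34 and free of Sca-1, CD45, CD31 and CD11b. The 6 groups were p53KO_3dai (n = 3), p53WT_3dai (n = 3), p53KO_G2 (n = 2), p53WT_G2 (n = 2), p53KO (n = 3) and p53WT (n = 3), where p53KO and p53WT are the labelled genotypes of Trp53. What 3dai and G2 stand for is not spelled out, so both are used here as names. Cells of the 3dai groups came from the tibialis anterior and those of the other groups from hind limb muscles. A difference between 3dai cells and either G2 cells or cells with no suffix is thus also a difference between muscles. The series title names a severe model of Duchenne muscular dystrophy, but the labels give no allele of the dystrophin gene, and they say neither which part of Trp53 was removed nor what drove its removal. Whether replicates are separate animals is not stated, so p-values measure the spread between these libraries only.

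Trp53 was measured first, as the check of the genotype labels. It had 41.3, 45.7 and 34.9 FPKM in p53KO_3dai cells, against 134, 135 and 161 FPKM in p53WT_3dai cells. It had 16.7 and 19.8 FPKM in p53KO_G2 cells, against 71.0 and 59.9 FPKM in p53WT_G2 cells. With no suffix it had 6.34, 12.2 and 7.17 FPKM in p53KO cells, against 39.9, 53.9 and 48.1 FPKM in p53WT cells. Every p53KO library was below every p53WT library of its pair, and none was at 0. FPKM (fragments per kilobase of transcript, scaled by library) are given per length, so that levels of different genes may be compared. Their sum over all genes was 423303 to 616485 per library, and read numbers are not given. The muscle stem cell markers Pax7, Myf5, Itga7, Cd34, Vcam1, Sdc4, Cdh15 and Cxcr4 summed to 579 to 2512 FPKM per library, with Pax7 at 5.22 to 97.1 FPKM. Markers of macrophages summed to at most 27.3 FPKM and those of endothelial cells to at most 9.77 FPKM. The muscle stem cell sum moved with the groups. It was 579 to 679 FPKM in 3dai, 907 to 1208 FPKM in G2 and 1792.5 to 2512 FPKM in libraries with no suffix. Sdc4 made up most of that, at 111 to 150 FPKM in 3dai libraries and 1114 to 1750 FPKM with no suffix. Itga7 went the other way, at 181 to 226 FPKM in 3dai libraries and 81.1 to 92.3 FPKM with no suffix. Other lists moved with the groups as well. Markers of fibro-adipogenic cells summed to 24.3 to 54.2 FPKM in p53KO_3dai and 30.1 to 45.7 FPKM in p53WT_3dai cells, 186 to 233 FPKM in p53KO_G2 and 265 to 284 FPKM in p53WT_G2 cells, and 665 to 929 FPKM in p53KO and 730 to 859 FPKM in p53WT cells. In that list Dcn, at 23.2 to 625 FPKM, and Dpt, at 0 to 369 FPKM, made up most of the sum, while Pdgfra was at most 2.44 FPKM and Ly6a, which codes for the Sca-1 that the sort selected against, at most 6.60 FPKM. Schwann cell markers summed to 16.4 to 58.7 FPKM in p53KO_3dai, 20.6 to 30.5 FPKM in p53WT_3dai, 179 to 211 FPKM in p53KO_G2, 217 to 218 FPKM in p53WT_G2, 543 to 581 FPKM in p53KO and 601 to 655 FPKM in p53WT cells. Markers of pericytes and smooth muscle summed to 14.1 to 45.4 FPKM in the 3dai libraries and 269.5 to 888 FPKM elsewhere. Those of tenocytes summed to 36.0 to 85.8 FPKM in the 3dai libraries and 224 to 543 FPKM elsewhere. Within the tenocyte list Scx went the other way, at 26.0 to 70.4 FPKM in 3dai libraries and 2.25 to 9.01 FPKM with no suffix. The other markers of that list were lower in 3dai libraries than with no suffix. Markers of mature fibres summed to 404 to 823 FPKM in p53KO_G2 and 538 to 1415 FPKM in p53WT_G2 cells and to 19.6 to 90.1 FPKM elsewhere. The part of other cells in the results below was not tested. In bulk RNA, fewer cells of a type and less RNA per cell cannot be told apart.

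A few libraries stood apart. In p53KO replicate 3, Pax7 was at 97.1 FPKM, against 27.7 and 28.2 FPKM in p53KO replicates 1 and 2, and Eif5a was at 339 FPKM, against 750 and 652 FPKM. In p53KO_3dai replicates 2 and 3, Mir6236 made up 9.81% and 10.1% of the summed FPKM, against 0.277% to 2.36% in the other 14 libraries, and the stress genes described below were low. Counts of called members that rest on these libraries are given with and without them. Calls in the lists of neighbouring genes are given with all libraries only.

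Translation begins when eIF2 brings the initiator tRNA to the small ribosomal subunit, eIF3 and the eIF4 factors load that subunit on a capped mRNA, and eIF1, eIF1A and eIF5 govern the scan to the start codon. The guanine exchange factor eIF2B recharges eIF2, and kinases that phosphorylate eIF2 in stress block that step, which lowers initiation in general while raising translation of the transcription factor Atf4. The eIF4E binding proteins hold back the cap-binding factor until mTORC1 phosphorylates them. The elongation factors eEF1A and eEF2 then move the ribosome along, and aminoacyl-tRNA synthetases, with separate sets for cytosol and mitochondria, charge the tRNAs. Quiescent muscle stem cells are known for a low rate of protein synthesis, held down in part by phosphorylation of eIF2.

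Promoters of the members were searched for short motifs. Myc-type factors bind the E-box CACGTG and Atf4 binds the element TGATGNAA. Whether a motif bears on the members' changes was not tested. RefSeq (GRCm38.p6) gave a promoter for 76 of the 101 members, read here over the 250 bases before each annotated start and searched on both strands. A gene was counted once if any of its windows held the motif, so genes with several starts had more windows searched. The E-box was in 14 of 76 members (18.4%), against 1854 of all 27025 genes with a promoter (6.86%). It was in 4 of 9 eIF4 factors (Eif4a1, Eif4e, Eif4g1 and Eif4h), in both eIF5A genes, in 3 of 12 cytosolic synthetases (Aars, Farsb and Iars) and in 0 of 14 mitochondrial synthetases. The Atf4 element was in 5 of 76 members (Aars, Gars, Tars, Eif2s3x and Eef2k, 6.58%), against 1056 of all genes with a promoter (3.91%). The cyclic AMP element TGACGTCA, which neither contains nor lies within the other motifs, was in 0 of 76 members, against 478 of all genes with a promoter (1.77%). The promoters of all genes were not limited to genes that passed the expression filter. A match in these letters is a description and not a measured binding site. Some members with a motif were called higher in 3dai cells and some were not, and they were not counted against members without one. Eif4a1 and Eif4e hold the E-box and Tars the Atf4 element, and none of these was called in 3dai cells against no suffix. The windows are given for Eif1 and Eif5, both lower in 3dai and G2 cells and holding none of the motifs, for Eif4g1 and Farsb, higher in 3dai cells with an E-box, for Gars, higher in 3dai cells with the Atf4 element, and for Aars, which holds both and was not called in 3dai cells. Capitals mark the motifs, and the reverse complement where the match is on the other strand. The windows lie at chr11:100319699-100319948 on the plus strand (Eif1), chr12:111537851-111538100 on the plus strand (Eif5), chr16:20672477-20672726 on the plus strand (Eif4g1), chr1:78488898-78489147 on the minus strand (Farsb), chr6:55037751-55038000 on the plus strand (Gars) and chr8:111033592-111033841 on the plus strand (Aars).
Eif1: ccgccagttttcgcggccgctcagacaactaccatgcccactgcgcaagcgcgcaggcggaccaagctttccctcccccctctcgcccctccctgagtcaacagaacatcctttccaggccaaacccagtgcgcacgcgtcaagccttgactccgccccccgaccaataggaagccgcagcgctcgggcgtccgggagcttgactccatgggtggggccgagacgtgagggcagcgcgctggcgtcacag
Eif5: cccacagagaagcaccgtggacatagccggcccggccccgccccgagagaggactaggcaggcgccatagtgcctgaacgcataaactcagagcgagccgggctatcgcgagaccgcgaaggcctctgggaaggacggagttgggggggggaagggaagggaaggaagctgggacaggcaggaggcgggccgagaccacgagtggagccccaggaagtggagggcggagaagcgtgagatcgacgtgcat
Eif4g1: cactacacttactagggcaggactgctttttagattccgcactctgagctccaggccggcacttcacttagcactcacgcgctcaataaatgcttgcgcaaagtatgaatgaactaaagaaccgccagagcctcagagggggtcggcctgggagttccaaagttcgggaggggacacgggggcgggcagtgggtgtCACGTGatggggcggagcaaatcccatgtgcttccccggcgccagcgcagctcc
Farsb: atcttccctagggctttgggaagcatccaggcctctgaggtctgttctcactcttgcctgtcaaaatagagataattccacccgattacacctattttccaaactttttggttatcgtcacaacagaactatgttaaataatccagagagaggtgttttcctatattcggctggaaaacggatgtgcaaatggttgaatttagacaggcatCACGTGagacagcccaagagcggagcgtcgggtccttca
Gars: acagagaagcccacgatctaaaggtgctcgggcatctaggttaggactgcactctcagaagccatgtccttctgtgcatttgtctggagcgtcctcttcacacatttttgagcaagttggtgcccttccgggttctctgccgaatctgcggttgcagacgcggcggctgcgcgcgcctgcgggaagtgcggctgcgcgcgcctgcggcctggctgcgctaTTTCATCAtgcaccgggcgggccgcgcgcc
Aars: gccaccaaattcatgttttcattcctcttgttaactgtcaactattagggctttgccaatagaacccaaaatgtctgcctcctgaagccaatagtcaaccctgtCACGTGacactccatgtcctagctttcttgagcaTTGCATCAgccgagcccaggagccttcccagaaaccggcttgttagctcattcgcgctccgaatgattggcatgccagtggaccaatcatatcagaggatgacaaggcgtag

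The members differed widely in level. Eef1a1, which delivers aminoacyl-tRNA to the ribosome, was the highest, with 3008 to 4603 FPKM over the 16 libraries. Eef2, the translocase, had 1028 to 1695 FPKM, Eif5a 339 to 1675 FPKM, the RNA helicase Eif4a1 316 to 776 FPKM and Eif1 338 to 924 FPKM. Of the 101 members, 36 averaged above 100 FPKM and 20 below 10 FPKM. Eif4e1b was at 0 in every library, and Eif3j1 reached 0.0484 to 0.259 FPKM. These 2 did not pass the filter of 1 FPKM in 2 libraries, which left 99 to be tested. Eef1a2, the elongation factor form of adult muscle fibres and neurons, had 0 to 1.43 FPKM.

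In sum the members had more FPKM in 3dai cells. Their summed FPKM was 18741 ± 725 in p53KO_3dai cells (SD, n = 3) and 13964 ± 1182 in p53KO_G2 cells (SD, n = 2), against 12948 ± 654 in p53KO cells (SD, n = 3). It was 18599 ± 821 in p53WT_3dai cells (SD, n = 3) and 13707 ± 127 in p53WT_G2 cells (SD, n = 2), against 13253 ± 1071 in p53WT cells (SD, n = 3). The 3dai libraries did not overlap the others, and the G2 libraries overlapped those with no suffix. These sums are not shares of the RNA, as the FPKM of all genes also summed to more in 3dai libraries. That total was 529605 to 616485 in 3dai, 482451 to 525970 in G2 and 423303 to 511051 in libraries with no suffix. Scaled by median of ratios, the members' sums were 17056 in p53KO_3dai and 11852 in p53KO_G2 cells, against 14836 in p53KO cells. They were 16189 in p53WT_3dai and 11713 in p53WT_G2 cells, against 15274 in p53WT cells. Under that scaling the G2 sums thus lay below those with no suffix. Not every role followed the total. The 6 factors of start codon scanning and subunit joining summed to 1085 ± 106 FPKM in p53KO_3dai and 1037 ± 35.3 FPKM in p53KO_G2 cells, against 1515 ± 222 FPKM in p53KO cells, while the 17 mitochondrial synthetases summed to 250.4 ± 28.5 FPKM in p53KO_3dai and 171 ± 13.5 FPKM in p53KO_G2 cells, against 80.2 ± 3.55 FPKM in p53KO cells.

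Each gene was tested with limma on log2(FPKM + 1), in 1 fit of all libraries with p-values adjusted by Benjamini-Hochberg over the 12954 genes tested, and was called at an adjusted p below 0.05. All differences below are on that scale, where the added 1 shrinks the change of low genes. In p53KO_3dai against p53KO cells 64 of 99 members were called higher and 6 lower, beside 30.4% of all genes called higher and 22.7% lower. In p53WT_3dai against p53WT cells 56 were higher and 4 lower, beside 31.8% and 20.9% of all genes. Of the members higher in 3dai cells 52 were higher in both genotypes, 81.2% of the 64 in p53KO and 92.9% of the 56 in p53WT cells. The groups did not overlap for 76 members in p53KO_3dai against p53KO cells, beside 58.7% of all genes, and for 74 in p53WT_3dai against p53WT cells, beside 59.7%. The 4 that were lower in both were Eif1, Eif1a, Eif5 and Eif4a2, 66.7% of the 6 in p53KO and 100% of the 4 in p53WT cells. Calls shared between the genotypes were not counted over all genes, so the sharing is not read as particular to the members. The median difference of the members was 0.86 in p53KO and 0.74 in p53WT cells, against 0.14 and 0.23 over all genes.

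The G2 cells differed less. In p53KO_G2 against p53KO cells 33 members were higher and 3 lower, beside 22.5% and 7.06% of all genes. In p53WT_G2 against p53WT cells 26 were higher and 6 lower, beside 22.1% and 5.39% of all genes. The median of the members was 0.48 in p53KO and 0.22 in p53WT cells, against 0.31 and 0.33 over all genes, so the members' median was above that of all genes in p53KO and below it in p53WT cells. Of the members higher in G2 cells 19 were higher in both genotypes, 57.6% of the 33 and 73.1% of the 26. Eif1, Eif1a and Eif5 were lower in both. For G2 too, calls shared between the genotypes were not counted over all genes. Set against each other, p53KO_G2 and p53KO_3dai cells had 2 members higher and 23 lower in G2, beside 16.1% and 7.1% of all genes, and p53WT_G2 and p53WT_3dai cells 1 higher and 26 lower, beside 13.9% and 6.7%. Groups without overlap were found for 56 members in p53KO_G2 against p53KO (52.1% of all genes) and 53 in p53WT_G2 against p53WT cells (56.1%), and for 57 in p53KO_G2 against p53KO_3dai (48.9%) and 71 in p53WT_G2 against p53WT_3dai cells (53.8%). These comparisons share libraries and are not independent of each other. With 2 libraries a group, the G2 counts moved with single libraries. Without p53KO_G2 replicate 1, 8 members were higher than in p53KO cells, which is 8.08% of the 99, beside 12.9% of all genes, so the members' share was then below that of all genes. Without p53KO replicate 3, 6 were lower, beside 7.15% of all genes. In p53WT_G2 against p53WT cells 16 were higher without p53WT_G2 replicate 1, beside 14.7% of all genes, and 13 higher and 2 lower without p53WT_G2 replicate 2, beside 11.7% and 2.39%. Against 3dai cells, 10 were lower in p53KO_G2 cells without p53KO_G2 replicate 2 (2.98% of all genes) and 14 without p53KO_3dai replicate 3 (3.71%), while in p53WT_G2 cells 8 were lower without p53WT_G2 replicate 1 (2.29%), 10 without p53WT_G2 replicate 2 (2.24%) and 15 without p53WT_3dai replicate 1 (4.23%).

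**Figure D1:**
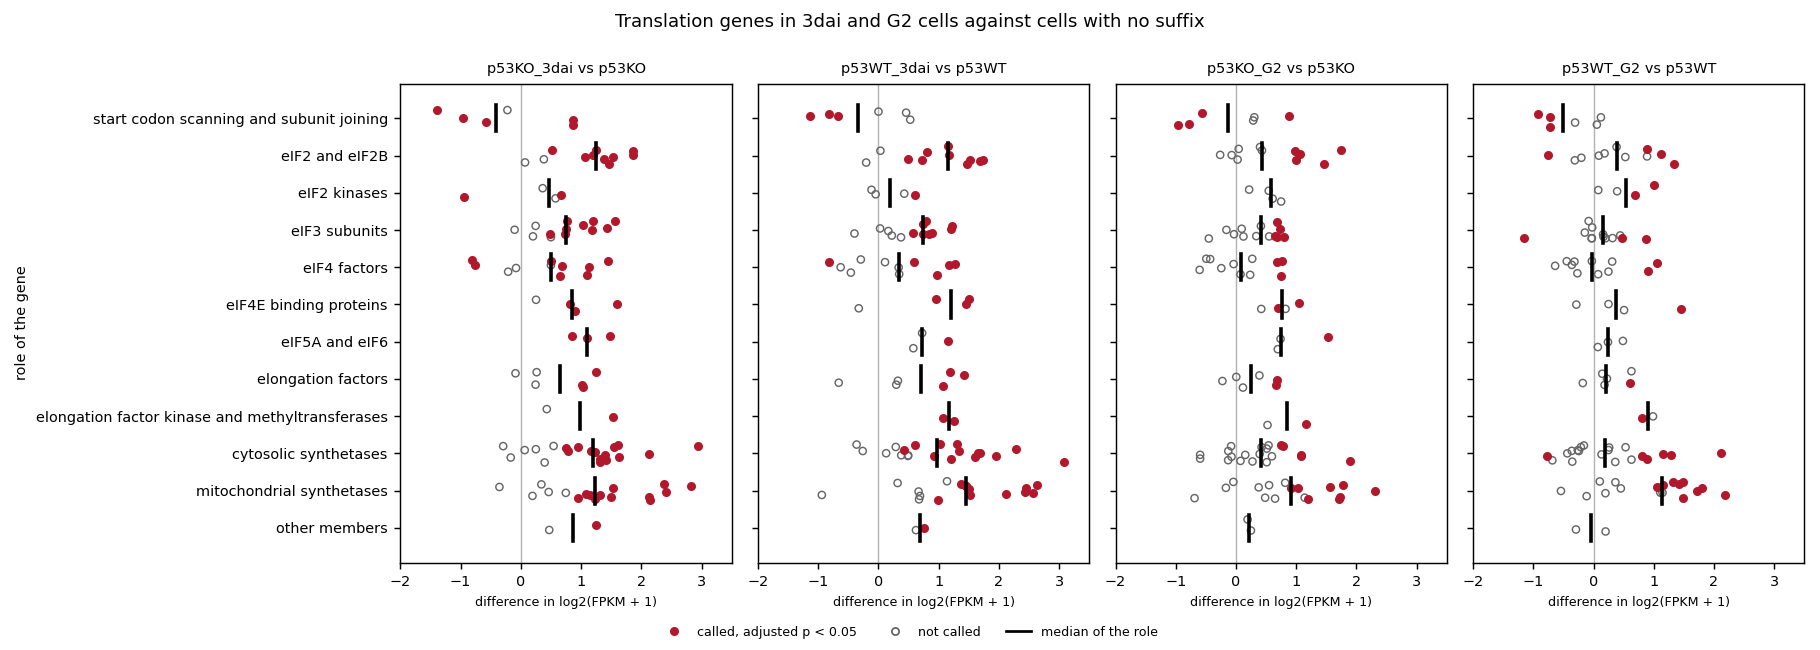
Difference in log2(FPKM + 1) of each tested member (x axis) by role (rows) in p53KO_3dai against p53KO, p53WT_3dai against p53WT, p53KO_G2 against p53KO and p53WT_G2 against p53WT cells; filled points were called by limma at an adjusted p below 0.05, open points were not, and black bars are role medians. Most points of the 3dai panels lie right of 0, with Eif1, Eif1a, Eif5 and Eif4a2 called to the left of it in both, and the synthetases reach furthest.

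The scale of the data bears on these counts. Dividing the FPKM by median-of-ratios factors moved the median of all genes to -0.09 in p53KO_3dai and -0.06 in p53WT_3dai cells and to -0.03 in p53KO_G2 and 0 in p53WT_G2 cells. Calls then numbered 44 higher and 8 lower in p53KO_3dai, 40 and 10 in p53WT_3dai, 9 and 12 in p53KO_G2 and 11 and 15 in p53WT_G2 cells, each against cells with no suffix. The shares of all genes under that scaling were 23.3% higher and 28.6% lower in p53KO_3dai, 23.5% and 27.4% in p53WT_3dai, 12.3% and 12.7% in p53KO_G2 and 12.7% and 11.8% in p53WT_G2 cells. The members called in G2 were then 9.09% higher and 12.1% lower in p53KO and 11.1% and 15.2% in p53WT cells, which is near the share of all genes. With quantile normalization they numbered 51 and 7, 47 and 10, 16 and 9, and 15 and 8 in the same order, and with equal sums after leaving out Mir6236 they numbered 50 and 6, 46 and 7, 28 and 3, and 22 and 8. In that order, the shares of all genes were 26.8% higher and 24.7% lower, 26% and 24.8%, 13.9% and 13.2%, and 13.4% and 12.1% with quantile normalization, and 25.7% and 25.6%, 26.4% and 24%, 19.4% and 7.51%, and 20.1% and 5.86% with equal sums. For G2 against 3dai the counts were 1 higher and 35 lower in p53KO and 0 and 26 in p53WT cells with median of ratios, 1 and 24, and 1 and 26 with quantile normalization, and 2 and 19, and 3 and 14 with equal sums. Beside these, 14.2% of all genes were higher and 8.67% lower in p53KO and 12.7% and 6.6% in p53WT cells with median of ratios, 11.3% and 9.61%, and 10.7% and 8.61% with quantile normalization, and 17.4% and 4.95%, and 15.9% and 3.98% with equal sums. Relative to the median of all genes, the members' median was above in 3dai against no suffix under all 4 scalings (by 0.59 to 0.72 in p53KO and 0.42 to 0.51 in p53WT cells). In p53KO_G2 it was above by 0.12 to 0.20, and in p53WT_G2 it was below by 0.11 as deposited, above by 0.12 with quantile normalization and below by 0.19 with median of ratios. No member called as deposited changed sign under any scaling.

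Of the 6 factors of scanning and subunit joining, 3 were lower in each 3dai and each G2 group, namely Eif1, Eif1a and Eif5. Higher were 2 in p53KO_3dai, 1 in p53KO_G2 and 0 in p53WT_3dai and p53WT_G2 cells. Beside the counts by role here and below, 30.4% of all genes were higher and 22.7% lower in p53KO_3dai cells. In p53WT_3dai cells 31.8% and 20.9% were, in p53KO_G2 cells 22.5% and 7.06%, and in p53WT_G2 cells 22.1% and 5.39%. Eif1, which enforces the choice of the start codon, had 439, 338 and 421 FPKM in p53KO_3dai cells and 384 and 409.7 FPKM in p53KO_G2 cells, against 722, 924 and 698 FPKM in p53KO cells. It had 483, 459.5 and 472 FPKM in p53WT_3dai cells and 448 and 427 FPKM in p53WT_G2 cells, against 804, 856 and 839 FPKM in p53WT cells. Every 3dai and G2 library was below every library with no suffix. The difference was -0.96 (SE 0.15, adjusted p = 7.32e-05) in p53KO_3dai and -0.82 (SE 0.15, adjusted p = 0.000313) in p53WT_3dai cells. In G2 it was -0.97 (SE 0.17, adjusted p = 0.000631) in p53KO and -0.93 (SE 0.17, adjusted p = 0.00087) in p53WT cells. Its homologue Eif1b was not called, with a difference of -0.22 in p53KO_3dai and 0.00 in p53WT_3dai cells.

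Eif1a and Eif1ax code for near-identical forms of eIF1A, which holds the scanning complex open, and reads shared by them may have been split either way. Eif1a had 100.2, 67.3 and 76.8 FPKM in p53KO_3dai cells and 127 and 118 FPKM in p53KO_G2 cells, against 219, 213 and 205 FPKM in p53KO cells. It had 107, 87.8 and 90.7 FPKM in p53WT_3dai cells and 135 and 117 FPKM in p53WT_G2 cells, against 235, 208 and 186 FPKM in p53WT cells. The groups with no suffix stood above all others, with a difference of -1.39 (SE 0.16, adjusted p = 4.84e-06) in p53KO_3dai and -1.13 (SE 0.16, adjusted p = 3.67e-05) in p53WT_3dai cells. In G2 cells it was -0.79 (SE 0.18, adjusted p = 0.00492) in p53KO and -0.73 (SE 0.18, adjusted p = 0.00817) in p53WT cells. Eif1ax had 361, 311 and 378 FPKM in p53KO_3dai cells and 275 and 204 FPKM in p53KO_G2 cells, against 228, 265 and 116 FPKM in p53KO cells. It had 331, 307 and 367 FPKM in p53WT_3dai cells and 257 and 225 FPKM in p53WT_G2 cells, against 225, 302 and 183 FPKM in p53WT cells. Eif1ax was called higher in p53KO_3dai cells, by 0.86 (SE 0.26, adjusted p = 0.0116), and not called in p53WT_3dai cells, at 0.53 (SE 0.26, adjusted p = 0.103). The Eif1ax call in p53KO_3dai cells was lost without p53KO replicate 3 and with median-of-ratios scaling (adjusted p = 0.0543 to 0.1). The share of Eif1ax in the pair was 78.3%, 82.2% and 83.1% in p53KO_3dai cells, against 51.0%, 55.5% and 36.2% in p53KO cells. It was 75.6%, 77.8% and 80.2% in p53WT_3dai cells, against 48.9%, 59.2% and 49.5% in p53WT cells. Each 3dai library thus had a higher share than any library with no suffix.

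Eif5, the activator of the GTPase of eIF2 at the start codon, had 151, 154 and 159 FPKM in p53KO_3dai cells and 140.4 and 175 FPKM in p53KO_G2 cells, against 249, 239 and 212 FPKM in p53KO cells. It had 154, 136 and 165 FPKM in p53WT_3dai cells and 149 and 145 FPKM in p53WT_G2 cells, against 219, 258 and 252 FPKM in p53WT cells. It was lower in each, by -0.59 (SE 0.14, adjusted p = 0.00283) in p53KO_3dai, -0.68 (SE 0.14, adjusted p = 0.000963) in p53WT_3dai, -0.57 (SE 0.16, adjusted p = 0.0145) in p53KO_G2 and -0.72 (SE 0.16, adjusted p = 0.00368) in p53WT_G2 cells. Eif5b, the GTPase that joins the subunits, had 51.6, 50.3 and 55.1 FPKM in p53KO_3dai cells and 60.6 and 45.6 FPKM in p53KO_G2 cells, against 32.5, 36.7 and 18.9 FPKM in p53KO cells. It was higher in p53KO_3dai, by 0.86 (SE 0.22, adjusted p = 0.00372), and in p53KO_G2 cells, by 0.87 (SE 0.24, adjusted p = 0.0142). In p53WT cells it was not called, at 0.46 in 3dai and 0.12 in G2. The Eif5b call in p53KO_3dai cells was lost with median-of-ratios scaling (adjusted p = 0.0539).

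**Figure D2:**
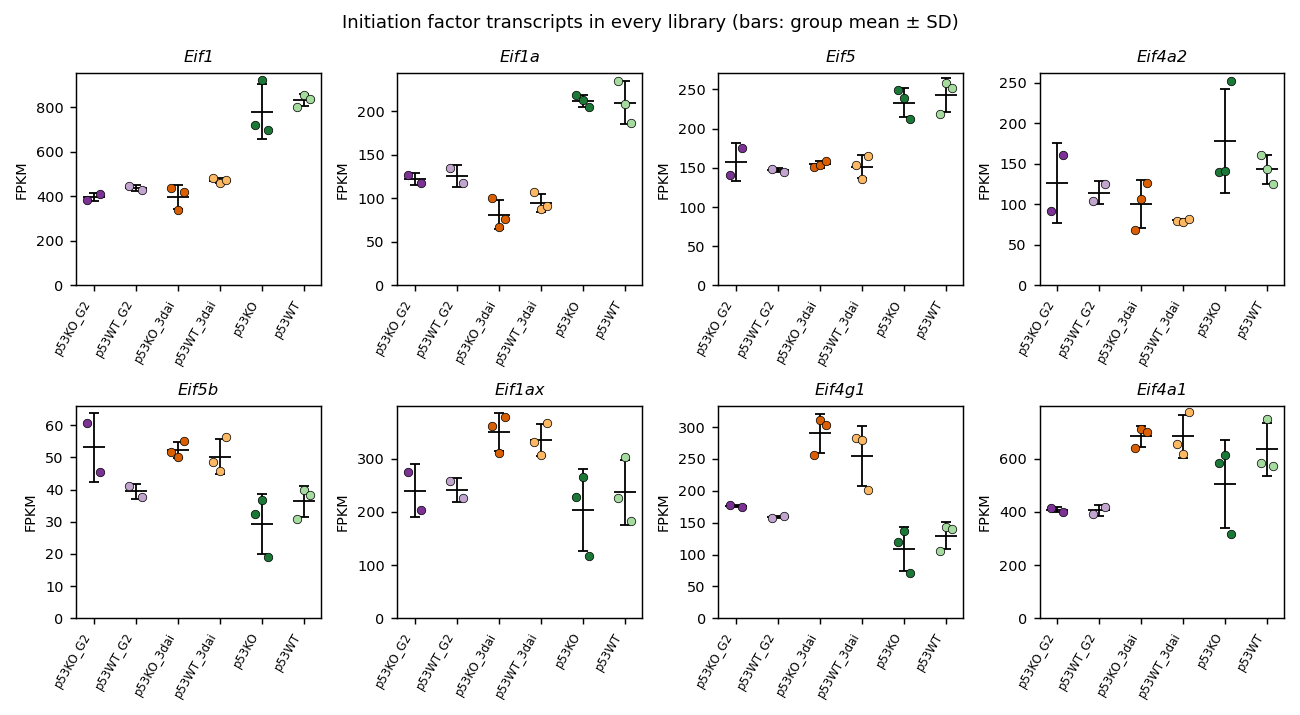
FPKM (y axes) of 8 initiation factors in each library (points) of p53KO_G2, p53WT_G2, p53KO_3dai, p53WT_3dai, p53KO and p53WT cells, with the mean and SD of each group. Eif1, Eif1a and Eif5 are highest in the groups with no suffix, while Eif4g1 and Eif1ax are highest in the 3dai groups.

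Genes of eIF2 and its exchange factor rose in 3dai cells. Of 11 tested, 9 were higher and 0 lower in p53KO_3dai cells, and likewise 9 and 0 in p53WT_3dai cells, with medians of 1.25 and 1.15. Eif2b5, the catalytic subunit of eIF2B, had 66.3, 69.3 and 72.7 FPKM in p53KO_3dai cells and 45.0 and 31.7 FPKM in p53KO_G2 cells, against 23.3, 18.9 and 14.0 FPKM in p53KO cells. It had 78.6, 73.6 and 65.9 FPKM in p53WT_3dai cells and 36.5 and 43.4 FPKM in p53WT_G2 cells, against 19.6, 24.9 and 19.4 FPKM in p53WT cells. The 3dai libraries were highest and those with no suffix lowest, without overlap, and the difference was 1.86 (SE 0.20, adjusted p = 1.91e-06) in p53KO_3dai and 1.73 (SE 0.20, adjusted p = 3.99e-06) in p53WT_3dai cells. In G2 it was 1.00 (SE 0.22, adjusted p = 0.0038) in p53KO and 0.88 (SE 0.22, adjusted p = 0.00869) in p53WT cells. All 5 eIF2B subunit genes were called higher in both 3dai groups, with Eif2b4 at 1.86 in p53KO and 1.51 in p53WT cells and Eif2b2 at 1.19 and 1.69 in the same groups. Eif2d, which can bring tRNA to the ribosome without eIF2, was higher by 1.47 in p53KO_G2 and 1.33 in p53WT_G2 cells, and Eif2b4 by 1.74 (SE 0.42, adjusted p = 0.00584) in p53KO_G2 cells.

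Among the subunits of eIF2 itself, Eif2s1, whose phosphorylation marks stress, had 119, 135 and 129.6 FPKM in p53KO_3dai cells, against 67.2, 67.6 and 32.6 FPKM in p53KO cells. It had 116, 123 and 107 FPKM in p53WT_3dai cells, against 66.1, 87.0 and 57.6 FPKM in p53WT cells. It was higher by 1.25 (SE 0.24, adjusted p = 0.000441) in p53KO_3dai and 0.73 (SE 0.24, adjusted p = 0.0188) in p53WT_3dai cells. The Eif2s1 call in p53WT_3dai cells was lost without p53WT_3dai replicate 2 or p53WT replicate 1 or 3 and with equal sums, median-of-ratios scaling or quantile normalization (adjusted p = 0.0519 to 0.275). Eif2s3x, the X-linked gene of the gamma subunit, had 16.2, 20.6 and 17.2 FPKM in p53KO_3dai cells, against 7.05, 8.23 and 8.91 FPKM in p53KO cells. It had 15.2, 15.0 and 17.4 FPKM in p53WT_3dai cells, against 8.79, 9.11 and 8.01 FPKM in p53WT cells. Its difference was 1.07 (SE 0.21, adjusted p = 0.000602) in p53KO_3dai and 0.81 (SE 0.21, adjusted p = 0.00482) in p53WT_3dai cells. The Y-linked copy Eif2s3y was measured at 22.3 to 60.5 FPKM, above Eif2s3x in every library, and was not called, at 0.07 in p53KO_3dai and -0.20 in p53WT_3dai cells. Eif2s2, the beta subunit and the highest of the role, was lower in p53WT_G2 cells, by -0.75 (SE 0.20, adjusted p = 0.012), and at -0.26 in p53KO_G2 cells. The Eif2s3x call in p53WT_3dai cells was lost with median-of-ratios scaling or quantile normalization (adjusted p = 0.108 to 0.117).

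The eIF2 kinases did not move together. Eif2ak1, activated by lack of haem and the highest of the 4, was higher by 0.66 (SE 0.19, adjusted p = 0.00943) in p53KO_3dai and 0.60 (SE 0.19, adjusted p = 0.0168) in p53WT_3dai cells. Eif2ak2, which senses double-stranded RNA, was higher in p53WT_G2 cells, by 1.00 (SE 0.34, adjusted p = 0.0409), where it was also above p53WT_3dai cells, by 1.04 (SE 0.34, adjusted p = 0.0421). The Eif2ak1 call in p53KO_3dai cells was lost with equal sums, median-of-ratios scaling or quantile normalization (adjusted p = 0.0678 to 0.144). The Eif2ak1 call in p53WT_3dai cells was lost without p53WT_3dai replicate 3 or p53WT replicate 3 and with equal sums, median-of-ratios scaling or quantile normalization (adjusted p = 0.0503 to 0.377). Eif2ak4, which senses uncharged tRNA, was not called in 3dai cells, at 0.36 in p53KO and 0.43 in p53WT cells. Eif2ak3, which senses unfolded protein in the endoplasmic reticulum, had 2.65, 0.611 and 3.27 FPKM in p53KO_3dai cells and 11.1 and 5.15 FPKM in p53KO_G2 cells, against 6.96, 3.56 and 3.99 FPKM in p53KO cells. It was lower in p53KO_3dai than in p53KO cells, by -0.95 (SE 0.38, adjusted p = 0.0467), and higher in p53KO_G2 than in p53KO_3dai cells, by 1.56 (SE 0.43, adjusted p = 0.016). Its lowest library was p53KO_3dai replicate 2. The Eif2ak3 call in p53KO_3dai cells was lost without p53KO_3dai replicate 2 or p53KO replicate 1 or 3 and with quantile normalization (adjusted p = 0.0529 to 0.251). In p53WT cells it was not called, at -0.12 in 3dai.

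Of 13 eIF3 subunits tested, 9 were higher and 0 lower in p53KO_3dai cells, and 8 and 0 in p53WT_3dai cells. Eif3c, part of the core that binds the small subunit, had 296, 289 and 295 FPKM in p53KO_3dai cells and 189 and 132 FPKM in p53KO_G2 cells, against 106, 112 and 80.7 FPKM in p53KO cells. It had 266, 295 and 245 FPKM in p53WT_3dai cells and 146 and 167 FPKM in p53WT_G2 cells, against 104, 116 and 125 FPKM in p53WT cells. Its difference, the largest of the role in 3dai, was 1.56 (SE 0.17, adjusted p = 2.06e-06) in p53KO_3dai and 1.22 (SE 0.17, adjusted p = 2.47e-05) in p53WT_3dai cells. Subunits of the same complex were not alike. Eif3e, the highest, had 201 to 305 FPKM over all libraries and was not called, at 0.24 in p53KO_3dai and 0.16 in p53WT_3dai cells. The loosely bound subunit gene Eif3j2 was at -0.10 and -0.40 there, and was lower in p53WT_G2 cells, by -1.16 (SE 0.25, adjusted p = 0.00317). Eif3j1 and Eif3j2 share 1 locus in the files, so reads of Eif3j1 may stand under Eif3j2. In G2 cells the largest rises were those of Eif3i in p53KO, 0.80 (SE 0.25, adjusted p = 0.024), and Eif3f in p53WT cells, 0.87 (SE 0.21, adjusted p = 0.00617).

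The cap-binding group was mixed, with 6 of 11 higher and 2 lower in p53KO_3dai and 4 and 1 in p53WT_3dai cells. Eif4g1, the scaffold that joins cap, helicase and eIF3, had 255, 312 and 304 FPKM in p53KO_3dai cells and 177 and 175 FPKM in p53KO_G2 cells, against 119, 137 and 70.5 FPKM in p53KO cells. It had 284, 280.1 and 201 FPKM in p53WT_3dai cells and 158 and 161 FPKM in p53WT_G2 cells, against 105, 144 and 139.5 FPKM in p53WT cells. It was higher by 1.45 (SE 0.22, adjusted p = 6.35e-05) in p53KO_3dai and 0.97 (SE 0.22, adjusted p = 0.00196) in p53WT_3dai cells. The related scaffold Eif4g3 was not called, at -0.21 and -0.46 in the same groups. Eif4e, the cap-binding protein, was not called either, at -0.08 in p53KO_3dai and -0.29 in p53WT_3dai cells. Eif4e2, a cap-binding homologue that represses, was higher by 1.09 in p53KO_3dai and 1.26 in p53WT_3dai cells, and by 0.77 in p53KO_G2 and 1.06 in p53WT_G2 cells. The third cap-binding gene, Eif4e3, was lower in p53KO_3dai cells, by -0.77 (SE 0.26, adjusted p = 0.0209), and was at -0.63 (SE 0.26, adjusted p = 0.0541) in p53WT_3dai cells, where it was not called. The Eif4g1 call in p53WT_3dai cells was lost with median-of-ratios scaling (adjusted p = 0.0503). The Eif4e3 call in p53KO_3dai cells was lost without p53KO_3dai replicate 1 or 3 or p53KO replicate 1 or 3 (adjusted p = 0.0552 to 0.0952).

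The helicase paralogs Eif4a1 and Eif4a2 have near-identical products, and of the pair only Eif4a2 was called in 3dai cells. Eif4a2 had 68.0, 106 and 126 FPKM in p53KO_3dai cells and 91.3 and 161 FPKM in p53KO_G2 cells, against 140.3, 142 and 252 FPKM in p53KO cells. It had 80.0, 78.3 and 81.9 FPKM in p53WT_3dai cells and 104 and 125 FPKM in p53WT_G2 cells, against 161, 143 and 125 FPKM in p53WT cells. It was lower by -0.81 (SE 0.27, adjusted p = 0.018) in p53KO_3dai and -0.82 (SE 0.27, adjusted p = 0.0169) in p53WT_3dai cells. The Eif4a2 call in p53KO_3dai cells was lost without p53KO_3dai replicate 1 or p53KO replicate 3 (adjusted p = 0.0926 to 0.0936). The Eif4a2 call in p53WT_3dai cells was lost without p53WT replicate 1 (adjusted p = 0.0601). Eif4a1 had 639, 713 and 703 FPKM in p53KO_3dai cells and 416 and 401 FPKM in p53KO_G2 cells, against 585, 614 and 316 FPKM in p53KO cells. It had 657, 619.9 and 776 FPKM in p53WT_3dai cells and 392 and 419.8 FPKM in p53WT_G2 cells, against 584, 751 and 574 FPKM in p53WT cells. It was not called in 3dai, at 0.50 (SE 0.22, adjusted p = 0.0652) in p53KO and 0.11 (SE 0.22, adjusted p = 0.701) in p53WT cells. In G2 it was below 3dai cells, by -0.74 (SE 0.24, adjusted p = 0.0377) in p53KO and -0.75 (SE 0.24, adjusted p = 0.0407) in p53WT cells. The share of Eif4a1 in the pair was 84.8% to 90.4% in p53KO_3dai cells, against 80.7%, 81.3% and 55.6% in p53KO cells, and 88.8% to 90.4% in p53WT_3dai cells, against 78.4% to 84.0% in p53WT cells.

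Of the 4 genes grouped as eIF4E binding proteins, 3 were higher in 3dai cells in each genotype. The role holds Eif4enif1 besides Eif4ebp1, Eif4ebp2 and Eif4ebp3, and only Eif4ebp3 was not called. The Eif4ebp genes code for proteins that restrain cap-dependent initiation. Eif4ebp1 had 299, 133 and 129 FPKM in p53KO_3dai cells and 225 and 184 FPKM in p53KO_G2 cells, against 103, 112 and 82.5 FPKM in p53KO cells. It had 268, 278 and 361 FPKM in p53WT_3dai cells and 167 and 144 FPKM in p53WT_G2 cells, against 136, 119 and 79.8 FPKM in p53WT cells. Within each genotype every 3dai library was above every library with no suffix, and within p53KO_3dai replicate 1 stood above the other two. The difference was 0.81 (SE 0.28, adjusted p = 0.0254) in p53KO_3dai and 1.45 (SE 0.28, adjusted p = 0.000513) in p53WT_3dai cells. The Eif4ebp1 call in p53KO_3dai cells was lost without p53KO_3dai replicate 1 or p53KO replicate 3 and with equal sums, median-of-ratios scaling or quantile normalization (adjusted p = 0.0706 to 0.152). Eif4ebp2 had 44.7, 32.6 and 45.6 FPKM in p53KO_3dai cells and 17.6 and 17.1 FPKM in p53KO_G2 cells, against 10.8, 13.5 and 14.1 FPKM in p53KO cells. It had 30.2, 46.1 and 21.3 FPKM in p53WT_3dai cells and 35.3 and 25.3 FPKM in p53WT_G2 cells, against 12.7, 7.75 and 11.2 FPKM in p53WT cells. It was higher in both 3dai groups, by 1.60 (SE 0.27, adjusted p = 0.000138) in p53KO and 1.50 (SE 0.27, adjusted p = 0.000245) in p53WT cells. In G2 it was higher in p53WT cells, by 1.45 (SE 0.30, adjusted p = 0.00226), and at 0.42 (SE 0.30, adjusted p = 0.319) in p53KO cells. Eif4ebp3 was not called, at 0.25 in p53KO_3dai and -0.33 in p53WT_3dai cells.

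Eif5a, whose product needs hypusination and helps ribosomes through difficult peptide bonds, had 1355, 1675 and 1564 FPKM in p53KO_3dai cells and 1014 and 779 FPKM in p53KO_G2 cells, against 750.4, 652 and 339 FPKM in p53KO cells. It had 1591, 1491 and 1634 FPKM in p53WT_3dai cells and 819 and 852 FPKM in p53WT_G2 cells, against 641, 974 and 569 FPKM in p53WT cells. It was among the most abundant members that rose, by 1.47 (SE 0.26, adjusted p = 0.000231) in p53KO_3dai and 1.15 (SE 0.26, adjusted p = 0.00174) in p53WT_3dai cells, and was not called in G2, at 0.69 in p53KO and 0.24 in p53WT cells. Its low paralog Eif5a2, with 0.345 to 7.53 FPKM, was higher in p53KO_3dai, by 1.09 (SE 0.42, adjusted p = 0.0392), and in p53KO_G2 cells, by 1.53 (SE 0.47, adjusted p = 0.0225). Eif6, which keeps the large subunit from joining early, was higher in p53KO_3dai cells, by 0.85 (SE 0.32, adjusted p = 0.0353), and at 0.73 (SE 0.32, adjusted p = 0.0701) in p53WT_3dai cells, where it was not called. The Eif5a2 call in p53KO_3dai cells was lost without p53KO_3dai replicate 1 or 3 or p53KO replicate 3 and with equal sums or median-of-ratios scaling (adjusted p = 0.0819 to 0.206). The Eif6 call in p53KO_3dai cells was lost without p53KO_3dai replicate 1 or 2 or p53KO replicate 3 and with equal sums, median-of-ratios scaling or quantile normalization (adjusted p = 0.0747 to 0.185).

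The core elongation factors changed little. Eef1a1 had 3968, 4511 and 4567 FPKM in p53KO_3dai cells and 3888 and 3478 FPKM in p53KO_G2 cells, against 3529.8, 3521 and 3967 FPKM in p53KO cells. It had 4108, 3937 and 4603 FPKM in p53WT_3dai cells and 3737 and 3694 FPKM in p53WT_G2 cells, against 3715, 3404 and 3008 FPKM in p53WT cells. It was not called, at 0.24 (SE 0.16, adjusted p = 0.231) in p53KO_3dai and 0.32 (SE 0.16, adjusted p = 0.113) in p53WT_3dai cells. Eef2 was not called in any comparison, with 1370.0 to 1695 FPKM in p53KO_3dai cells, against 1198 to 1548 FPKM in p53KO cells. The 3 genes of the factor that recharges eEF1A rose. Eef1g had 522, 611 and 608 FPKM in p53KO_3dai cells and 418 and 356 FPKM in p53KO_G2 cells, against 228, 207 and 304 FPKM in p53KO cells. It had 609.6, 559.6 and 650.1 FPKM in p53WT_3dai cells and 347 and 339 FPKM in p53WT_G2 cells, against 238, 258 and 185 FPKM in p53WT cells. It was higher by 1.25 (SE 0.17, adjusted p = 2.42e-05) in p53KO_3dai, 1.42 (SE 0.17, adjusted p = 6.78e-06) in p53WT_3dai, 0.66 (SE 0.20, adjusted p = 0.018) in p53KO_G2 and 0.61 (SE 0.20, adjusted p = 0.0303) in p53WT_G2 cells. Eef1b2 rose by 1.02 in p53KO_3dai and 1.19 in p53WT_3dai cells and Eef1d by 1.04 and 1.07 in the same groups.

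Of the genes that modify eEF2, the methyltransferase Eef2kmt was higher by 1.52 (SE 0.24, adjusted p = 6.9e-05) in p53KO_3dai and 1.26 (SE 0.24, adjusted p = 0.000386) in p53WT_3dai cells. Eef2k, the kinase that slows elongation, was higher in p53WT_3dai cells, by 1.07 (SE 0.35, adjusted p = 0.0188), and was at 0.43 in p53KO_3dai cells, where it was not called. The Eef2k call in p53WT_3dai cells was lost without p53WT_3dai replicate 2 or p53WT replicate 1 or 3 and with equal sums or median-of-ratios scaling (adjusted p = 0.0515 to 0.0901). The genotypes differed in this change by -0.64 (95% interval -1.71 to 0.43, unadjusted p = 0.22, adjusted p = 0.861). Eef1e1, named as an elongation factor but a scaffold of the multi-synthetase complex, was higher in p53KO_3dai cells, by 1.25 (SE 0.31, adjusted p = 0.00313), and was at 0.62 (SE 0.31, adjusted p = 0.104) in p53WT_3dai cells.

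The synthetases held the largest differences. In the cytosolic set 14 of 20 were higher and 0 lower in p53KO_3dai and 13 and 0 in p53WT_3dai cells, with medians of 1.20 and 0.98. Vars, the valyl-tRNA synthetase, had 105, 141 and 119 FPKM in p53KO_3dai cells and 66.5 and 51.2 FPKM in p53KO_G2 cells, against 11.9, 14.5 and 19.2 FPKM in p53KO cells. It had 105, 111 and 99.1 FPKM in p53WT_3dai cells and 54.4 and 51.9 FPKM in p53WT_G2 cells, against 12.3, 10.5 and 11.9 FPKM in p53WT cells. In both genotypes every 3dai library was above every G2 library, and every G2 library above every library with no suffix. The difference was 2.94 (SE 0.19, adjusted p = 9.36e-09) in p53KO_3dai and 3.07 (SE 0.19, adjusted p = 6.34e-09) in p53WT_3dai cells. In G2 it was 1.90 (SE 0.21, adjusted p = 1.21e-05) in p53KO and 2.11 (SE 0.21, adjusted p = 4.34e-06) in p53WT cells, and G2 cells were below 3dai cells by -1.04 (SE 0.21, adjusted p = 0.00267) in p53KO and -0.97 (SE 0.21, adjusted p = 0.0045) in p53WT cells. Mars, the methionyl-tRNA synthetase, had 86.9, 70.1 and 70.4 FPKM in p53KO_3dai cells and 37.7 and 34.3 FPKM in p53KO_G2 cells, against 16.6, 15.3 and 18 FPKM in p53KO cells. It had 77.4, 77.7 and 77.6 FPKM in p53WT_3dai cells and 34.1 and 35.9 FPKM in p53WT_G2 cells, against 15.9, 14.8 and 14.8 FPKM in p53WT cells. It had the same order without overlap, with 2.12 (SE 0.15, adjusted p = 2.78e-08) in p53KO_3dai and 2.28 (SE 0.15, adjusted p = 1.31e-08) in p53WT_3dai cells.

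Other cytosolic synthetases rose less. Farsb rose by 1.63 (SE 0.22, adjusted p = 1.65e-05) in p53KO_3dai and 1.65 (SE 0.22, adjusted p = 1.46e-05) in p53WT_3dai cells, and Qars by 1.08 in p53KO_G2 and 0.80 in p53WT_G2 cells. Gars, the glycyl-tRNA synthetase, had 266, 185 and 197 FPKM in p53KO_3dai cells and 146 and 89.6 FPKM in p53KO_G2 cells, against 103, 104 and 57.3 FPKM in p53KO cells. It had 258, 284 and 291 FPKM in p53WT_3dai cells and 106 and 111 FPKM in p53WT_G2 cells, against 77.0, 103 and 92.8 FPKM in p53WT cells. It was higher in 3dai, by 1.31 (SE 0.24, adjusted p = 0.000279) in p53KO and 1.61 (SE 0.24, adjusted p = 4.52e-05) in p53WT cells, and was not called in G2, at 0.42 in p53KO_G2 and 0.26 in p53WT_G2 cells. Wars, the tryptophanyl-tRNA synthetase and a known interferon-responsive gene, had 59.4, 48.8 and 48.3 FPKM in p53KO_3dai cells and 24.3 and 26.4 FPKM in p53KO_G2 cells, against 17.9, 15.6 and 17.9 FPKM in p53KO cells. It had 47.6, 48.6 and 44.7 FPKM in p53WT_3dai cells and 39.6 and 31.9 FPKM in p53WT_G2 cells, against 11.5, 17.6 and 13.3 FPKM in p53WT cells. Its difference was 1.55 (SE 0.18, adjusted p = 4.58e-06) in p53KO_3dai and 1.68 (SE 0.18, adjusted p = 2.01e-06) in p53WT_3dai cells. In G2 it was 1.29 (SE 0.20, adjusted p = 0.000282) in p53WT cells and 0.54 (SE 0.20, adjusted p = 0.0586) in p53KO cells, where it was not called.

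The synthetases that were not called in 3dai in either genotype were Aars, Cars, Eprs, Nars, Tars and Yars. Nars, the asparaginyl-tRNA synthetase and the highest of the cytosolic set, was at 0.54 in p53KO_3dai and 0.49 in p53WT_3dai cells. Eprs, which charges both glutamate and proline tRNAs, was at 0.25 and -0.26 and Yars at -0.29 and -0.36 in the same groups. Aars had 138, 68.1 and 74.2 FPKM in p53KO_3dai cells and 72.6 and 59.4 FPKM in p53KO_G2 cells, against 95.6, 103 and 101 FPKM in p53KO cells. It had 123, 128 and 106 FPKM in p53WT_3dai cells and 80.4 and 82.9 FPKM in p53WT_G2 cells, against 105, 81.1 and 107 FPKM in p53WT cells. Within p53KO_3dai, replicate 1 was above every library with no suffix of its genotype and replicates 2 and 3 below them all. Tars was lower in p53WT_G2 cells, by -0.77 (SE 0.26, adjusted p = 0.0343). Aars, Cars, Eprs, Gars, Nars, Sars and Wars are among the synthetases known as Atf4 targets in mammalian cells, and of these Gars, Sars and Wars were called higher in both 3dai groups. This set is not complete and is not part of the Atf4 list described below. Most cytosolic synthetases outside it were also called higher in both 3dai groups.

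Most mitochondrial synthetases rose in 3dai cells and about as many were called as not in G2 cells. Of 17 tested, 12 were higher and 0 lower in p53KO_3dai, 11 and 0 in p53WT_3dai, 8 and 0 in p53KO_G2 and 9 and 0 in p53WT_G2 cells, with medians of 1.23, 1.45, 0.91 and 1.14. Iars2, the highest, had 48.3, 67.7 and 61.6 FPKM in p53KO_3dai cells and 27.9 and 23.3 FPKM in p53KO_G2 cells, against 7.94, 8.68 and 16.8 FPKM in p53KO cells. It had 51.6, 50.4 and 41.6 FPKM in p53WT_3dai cells and 30.6 and 29.8 FPKM in p53WT_G2 cells, against 11.6, 12.4 and 7.31 FPKM in p53WT cells. The groups with no suffix were lowest, and the difference was 2.37 (SE 0.26, adjusted p = 2.38e-06) in p53KO_3dai and 2.12 (SE 0.26, adjusted p = 7.3e-06) in p53WT_3dai cells.

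Tars2 was higher by 2.15 (SE 0.29, adjusted p = 1.79e-05) in p53KO_3dai and 2.56 (SE 0.29, adjusted p = 3.18e-06) in p53WT_3dai cells, and by 1.71 in p53KO_G2 and 1.72 in p53WT_G2 cells. Sars2 rose by 2.41 in p53KO_3dai and 2.46 in p53WT_3dai cells, and by 1.72 in p53KO_G2 and 1.48 in p53WT_G2 cells. Rars2 rose by 2.12 (SE 0.50, adjusted p = 0.00207) in p53KO_3dai and 2.64 (SE 0.50, adjusted p = 0.000369) in p53WT_3dai cells, with p53WT libraries spread from 0.239 to 7.63 FPKM. Lars2 had 4.41 to 22.1 FPKM in p53WT cells alone and 2.31 to 35.8 FPKM over all libraries, and was called higher in p53KO_3dai cells, by 1.50 (SE 0.51, adjusted p = 0.0226), and in p53KO_G2 cells, by 1.77 (SE 0.57, adjusted p = 0.0294). The Lars2 call in p53KO_3dai cells was lost without p53KO_3dai replicate 3 or p53KO replicate 2 and with median-of-ratios scaling or quantile normalization (adjusted p = 0.0536 to 0.134). Vars2 was higher in p53WT_G2 cells, by 1.81 (SE 0.49, adjusted p = 0.0123). Mars2 had the lowest value of the set in p53WT_3dai cells, -0.94, and was not called.

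Between G2 and 3dai cells the synthetases made up 10 of the 23 members lower in p53KO_G2 and 11 of the 26 lower in p53WT_G2 cells. Both are near the share of synthetases among all members tested. Farsb was below 3dai cells by -1.12 (SE 0.24, adjusted p = 0.00444) in p53KO_G2 and -1.12 (SE 0.24, adjusted p = 0.00451) in p53WT_G2 cells, and Lars by -0.90 (SE 0.23, adjusted p = 0.011) and -1.17 (SE 0.23, adjusted p = 0.00224) in the same groups. Gars was lower by -1.35 (SE 0.27, adjusted p = 0.00244) in p53WT_G2 cells, the largest such difference there. In p53KO_G2 cells the largest was that of Eif2b3, -1.43 (SE 0.33, adjusted p = 0.00594).

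Several of the G2 calls named above rested on 1 library. In p53KO_G2 against p53KO cells Eif1, Eif1a, Mars, Qars, Tars2 and Vars held under every alternative. Eef1g, Eif2b4, Eif2b5, Eif3i, Eif4e2, Eif5, Eif5a2, Eif5b, Lars2 and Sars2 lost the call without p53KO_G2 replicate 1 (adjusted p = 0.07 to 0.308). Eif5a2 and Lars2 lost the call without p53KO_G2 replicate 2 (adjusted p = 0.0946 to 0.17). Eef1g lost the call without p53KO replicate 1 (adjusted p = 0.0538). Eef1g and Lars2 lost the call without p53KO replicate 2 (adjusted p = 0.0703 to 0.118). Eif3i and Eif5a2 lost the call without p53KO replicate 3 (adjusted p = 0.063 to 0.0788). In p53WT_G2 against p53WT cells Eif1, Eif4e2, Eif4ebp2, Eif5, Iars2, Mars, Tars2, Vars and Wars held under every alternative. Eef1g, Eif2ak2, Eif3f, Sars2 and Tars lost the call without p53WT_G2 replicate 1 (adjusted p = 0.0737 to 0.159). Eef1g, Eif1a, Eif2ak2, Eif2b5, Eif2d, Eif2s2, Eif3j2, Sars2, Tars and Vars2 lost the call without p53WT_G2 replicate 2 (adjusted p = 0.0536 to 0.23). Eif2ak2 and Tars lost the call without p53WT replicate 2 (adjusted p = 0.095 to 0.139). Eef1g, Sars2 and Tars lost the call without p53WT replicate 3 (adjusted p = 0.0698 to 0.095). In p53KO_G2 against p53KO_3dai cells the Mars and Wars calls held under every alternative. Eif2ak3, Eif2b3, Eif4a1 and Lars lost the call without p53KO_G2 replicate 1 (adjusted p = 0.089 to 0.168). Eif4a1 lost the call without p53KO_G2 replicate 2 (adjusted p = 0.158). Eif2ak3 and Eif4a1 lost the call without p53KO_3dai replicate 2 (adjusted p = 0.0663 to 0.0983). Eif4a1 lost the call without p53KO_3dai replicate 3 (adjusted p = 0.0959). In p53WT_G2 against p53WT_3dai cells Farsb, Gars, Lars, Mars, Sars and Vars held under every alternative. Eif2ak2 and Eif4a1 lost the call without p53WT_G2 replicate 1 (adjusted p = 0.175 to 0.192). Eif2ak2 and Eif4a1 lost the call without p53WT_G2 replicate 2 (adjusted p = 0.139 to 0.157). Eif2ak2 and Eif4a1 lost the call without p53WT_3dai replicate 1 (adjusted p = 0.0712 to 0.0758). Eif2ak2 and Eif4a1 lost the call without p53WT_3dai replicate 2 (adjusted p = 0.0566 to 0.123). Eif4a1 lost the call without p53WT_3dai replicate 3 (adjusted p = 0.118).

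**Figure D3:**
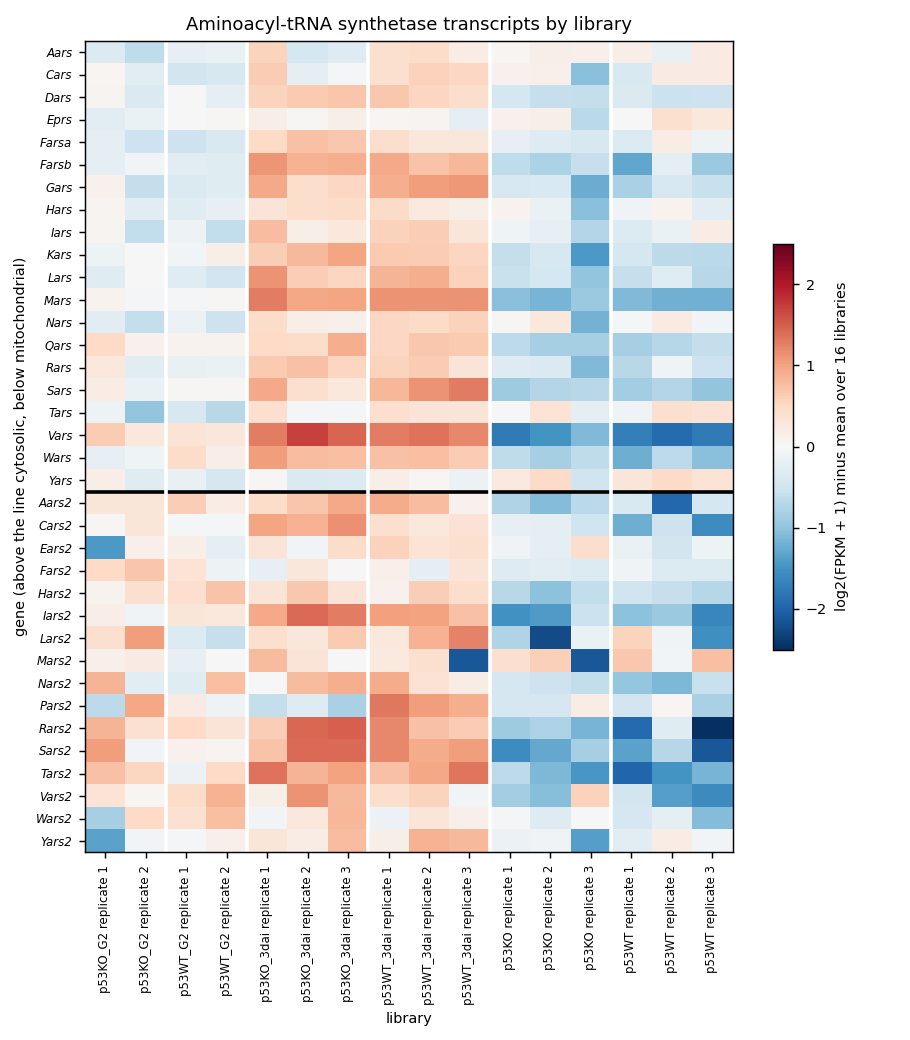
Colour gives log2(FPKM + 1) of each of 36 tested synthetases (rows) minus its mean over the 16 libraries, from -2.5 to 2.5, with libraries as columns by group and a line between the 20 cytosolic and the 16 mitochondrial genes shown. Vars, Mars and most mitochondrial genes are lowest in the columns with no suffix, and Pars2 is low in the p53KO_3dai columns.

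Between the genotypes no member was called in any state. In p53KO_3dai against p53WT_3dai cells 0 members were called in either direction, beside 0.00772% of all genes higher and 0.0772% lower, and 7 had an unadjusted p below 0.05. In p53KO_G2 against p53WT_G2 cells 0 were called, beside 0.0309% and 0.0386% of all genes, and 1 had an unadjusted p below 0.05. In p53KO against p53WT cells 0 were called, beside 0% and 0.00772% of all genes, and 2 had an unadjusted p below 0.05. The groups did not overlap for 9 members in 3dai (12% of all genes), 37 in G2 (31.2%) and 2 with no suffix (6.73%). The members' medians were 0.05 in 3dai, 0.07 in G2 and -0.13 with no suffix, against -0.02, -0.01 and 0.01 over all genes. Tests of the difference between the genotypes' responses called 0 members for 3dai, beside 0% of all genes in each direction, and 0 for G2, beside 0% higher and 0.0232% lower, with 3 and 6 members at an unadjusted p below 0.05. The counts at an unadjusted p are given without the share of all genes and are not read as results.

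**Figure D4:**
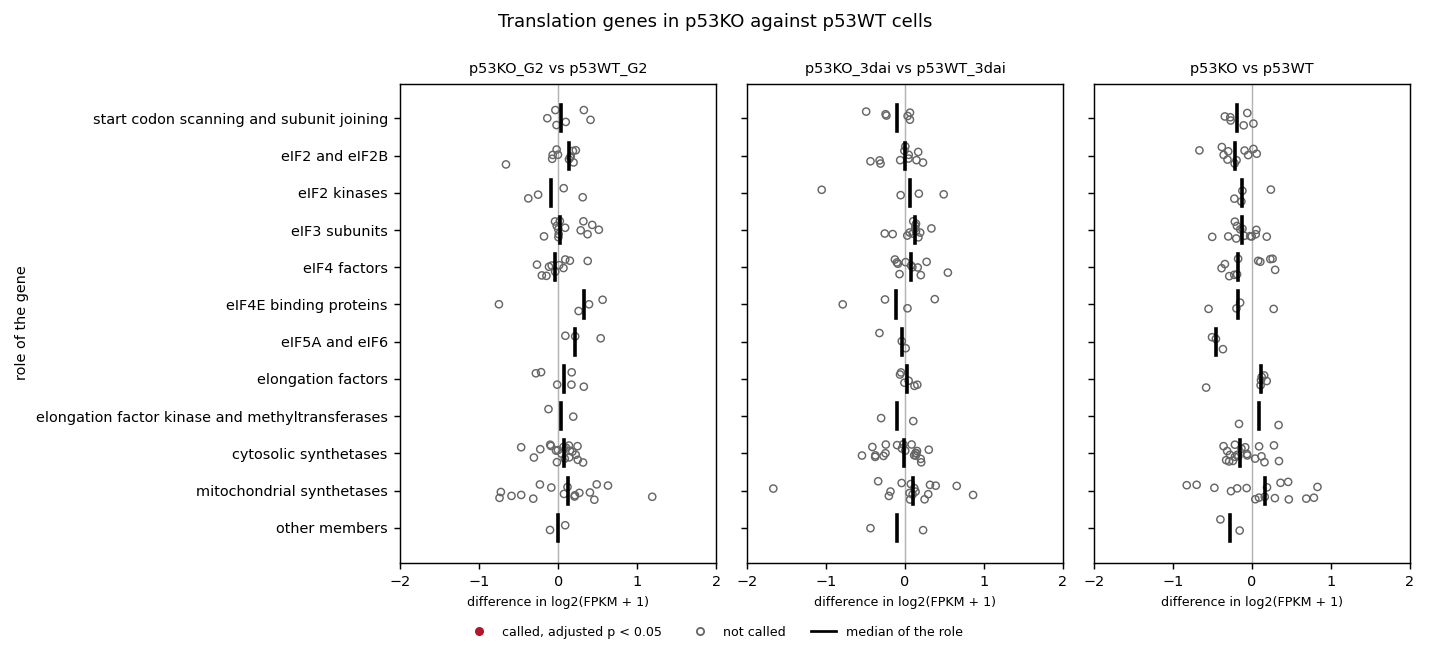
Difference in log2(FPKM + 1) of each tested member (x axis) by role (rows) in p53KO_G2 against p53WT_G2, p53KO_3dai against p53WT_3dai and p53KO against p53WT cells, with black bars at role medians and open points for members that limma did not call. Every point is open, and Pars2 in the 3dai panel lies furthest left there at -1.67.

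The members with the smallest p between genotypes are given as values. In p53KO_3dai cells Pars2, the mitochondrial prolyl-tRNA synthetase, had 0.158, 0.414 and 0 FPKM, against 3.37, 2.66 and 2.29 FPKM in p53WT_3dai cells. The groups did not overlap, and the difference was -1.67 (95% interval -2.50 to -0.84, unadjusted p = 0.000614, adjusted p = 0.199). Its change with 3dai was 1.50 (SE 0.39, adjusted p = 0.00417) in p53WT cells and -0.36 in p53KO cells, and the difference between those changes was -1.86 (95% interval -3.03 to -0.69, unadjusted p = 0.00397, adjusted p = 0.793). Eif4ebp1 was at -0.79 (95% interval -1.39 to -0.19, unadjusted p = 0.0138, adjusted p = 0.378) in p53KO_3dai against p53WT_3dai cells, Eif2ak3 at -1.06 (95% interval -1.87 to -0.25, unadjusted p = 0.014, adjusted p = 0.378) and Sars at -0.55 (95% interval -0.97 to -0.12, unadjusted p = 0.0156, adjusted p = 0.388). For the difference in response to 3dai, Sars was at -0.64 (95% interval -1.24 to -0.03, unadjusted p = 0.0398, adjusted p = 0.82), Farsa at 0.51 (95% interval 0.01 to 1.02, unadjusted p = 0.0451, adjusted p = 0.82) and Eif3a at 0.45 (95% interval -0.06 to 0.96, unadjusted p = 0.0795, adjusted p = 0.821).

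In p53KO_G2 against p53WT_G2 cells the smallest p were those of Eif4ebp2, at -0.75 (95% interval -1.45 to -0.05, unadjusted p = 0.037, adjusted p = 1), and Wars, at -0.47 (95% interval -0.95 to 0.01, unadjusted p = 0.0522, adjusted p = 1). Lars2 was at 1.19 (95% interval -0.15 to 2.53, unadjusted p = 0.0778, adjusted p = 1) and Eif3j2 at 0.51 (95% interval -0.08 to 1.10, unadjusted p = 0.0841, adjusted p = 1). For the difference in response to G2, Wars was at -0.75 (95% interval -1.37 to -0.14, unadjusted p = 0.0198, adjusted p = 1), Eif4ebp2 at -1.03 (95% interval -1.93 to -0.12, unadjusted p = 0.0284, adjusted p = 1), Eif3i at 0.82 (95% interval 0.07 to 1.56, unadjusted p = 0.0334, adjusted p = 1) and Lars2 at 1.89 (95% interval 0.16 to 3.62, unadjusted p = 0.0342, adjusted p = 1). With no suffix, Cars2 was at 0.79 (95% interval 0.20 to 1.37, unadjusted p = 0.0115, adjusted p = 1) in p53KO against p53WT cells and Eif3i at -0.50 (95% interval -0.97 to -0.03, unadjusted p = 0.0384, adjusted p = 1). Eif2s2 was at -0.36 (95% interval -0.75 to 0.03, unadjusted p = 0.0687, adjusted p = 1) and Vars at 0.34 (95% interval -0.06 to 0.74, unadjusted p = 0.0879, adjusted p = 1).

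The p53KO_3dai libraries were not alike in the genes of the integrated stress response, which runs from the eIF2 kinases to Atf4 and its targets. Atf4 had 679, 234 and 276 FPKM in p53KO_3dai cells, against 593, 620.3 and 759 FPKM in p53WT_3dai cells. Trib3, a pseudokinase induced by Atf4, had 47.1, 0.453 and 0.844 FPKM, against 55.6, 36.0 and 50.8 FPKM in the same groups. Chac1, a glutathione-degrading target, had 55.6, 0.531 and 1.91 FPKM in p53KO_3dai cells, against 41.6, 63.2 and 42.7 FPKM in p53WT_3dai cells. In each, replicate 1 was in or near the p53WT_3dai range and replicates 2 and 3 were below it. Of 31 genes in a list of Atf4 and its targets, 28 had both of those replicates below every p53WT_3dai library, and 0 had both above. Of the 99 members, 19 had both below and 23 both above, which is 19.2% and 23.2%. Over all genes 20.5% had both below and 13.8% both above, so the members' share below was near that of all genes. The median log2 difference of replicate 1 from the mean of replicates 2 and 3 was 1.22 for the Atf4 list, -0.09 for the members and 0.03 for all genes. The list was at a median of -0.89 in p53KO_3dai against p53WT_3dai cells, against -0.02 over all genes. Of its 31 genes 0 were called, 17 were at an unadjusted p below 0.05 in the limma test and 0 were positive. Replicates 2 and 3 were set apart in part because these genes were low in them, so these counts are not independent of that choice. The share of all genes at that unadjusted p is not given.

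**Figure D5:**
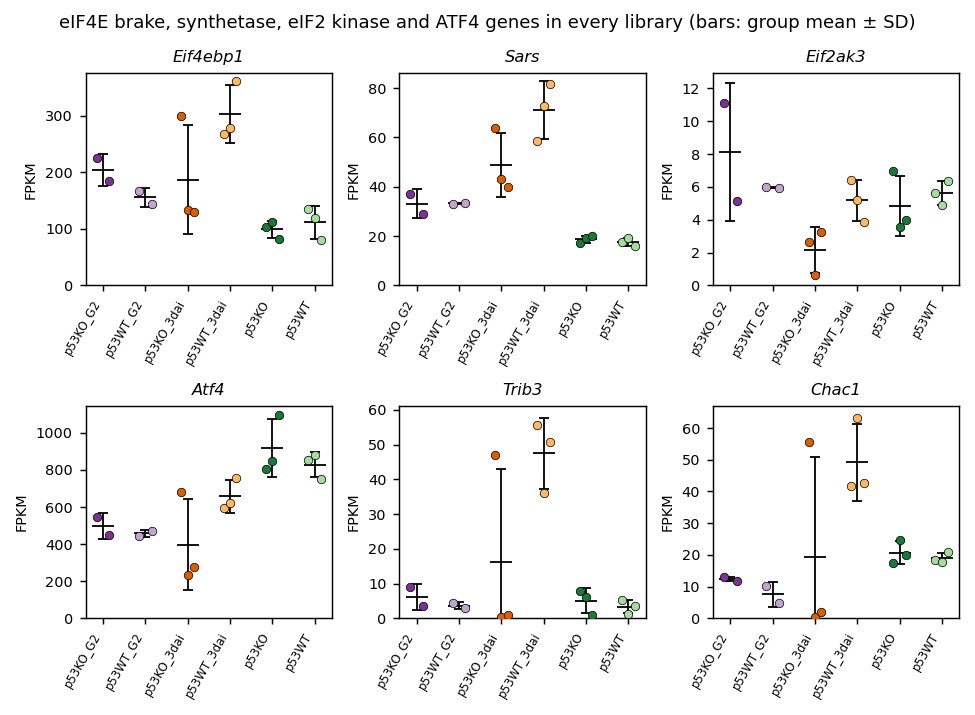
FPKM (y axes) in each library (points) of the members Eif4ebp1, Sars and Eif2ak3 and of Atf4, Trib3 and Chac1, with the mean and SD of each of the 6 groups. In p53KO_3dai cells Trib3 is at 47.1 FPKM in replicate 1 and at 0.45 and 0.84 FPKM in replicates 2 and 3.

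Eif4ebp1, Sars and Aars are given as values in the same libraries. Eif4ebp1, a known Atf4 target, had 299, 133 and 129 FPKM in p53KO_3dai cells, against 268, 278 and 361 FPKM in p53WT_3dai cells. Sars had 63.8, 43.2 and 39.7 FPKM, against 58.6, 72.8 and 81.7 FPKM, and Aars 138, 68.1 and 74.2 FPKM, against 123, 128 and 106 FPKM, in the same groups. Without p53KO_3dai replicate 1, 3 members were called lower in p53KO_3dai than in p53WT_3dai cells, namely Eif4ebp1 at -1.18 (adjusted p = 0.00816), Sars at -0.75 (adjusted p = 0.0432) and Aars at -0.73 (adjusted p = 0.0278). That is 3.03% of the 99, beside 3.64% of all genes called lower. With weights for library quality the same 3 and Pars2 were called lower (adjusted p = 0.00627 to 0.0255), 4.04% of the 99, beside 5.39% of all genes. Neither share of members was above that of all genes. With replicate 1 as the only library of its group, 0 were called. In all 3 genes replicate 1 was above replicates 2 and 3 within p53KO_3dai cells, and what sets those libraries apart was not tested. In p53KO_3dai against p53KO cells, leaving out replicates 2 and 3 gave 42 members higher and 5 lower, beside 21.8% and 13.3% of all genes, and leaving out p53KO replicate 3 gave 53 higher and 4 lower, beside 29% and 21.6%.

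Lists of neighbouring genes were described in the same way. Beside the counts of every list below, 30.4% of all genes were higher and 22.7% lower in p53KO_3dai against p53KO cells. In p53WT_3dai against p53WT cells 31.8% and 20.9% were. In p53KO_G2 against p53KO cells 22.5% and 7.06% were, and in p53WT_G2 against p53WT cells 22.1% and 5.39%. Of 31 genes of the Atf4 list, 9 were higher and 13 lower in p53KO_3dai, 14 and 7 in p53WT_3dai, 4 and 6 in p53KO_G2 and 5 and 6 in p53WT_G2 cells, each against cells with no suffix. Phgdh, the first enzyme of serine synthesis, was higher by 5.14 in p53KO_3dai and 5.18 in p53WT_3dai cells, and Asns, asparagine synthetase, by 4.12 and 4.49. Atf3, a stress and early response factor, was lower by -5.66 and -4.55 in the same groups. Members of the list thus moved in both directions, as did all genes.

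Of 14 mitochondrial translation factors, 10 were higher in p53KO_3dai, 8 in p53WT_3dai, 4 in p53KO_G2 and 7 in p53WT_G2 cells, and 0 were lower in each. Tsfm, the exchange factor of the mitochondrial elongation factor Tufm, rose by 3.62 in p53KO_3dai and 3.70 in p53WT_3dai cells, and Tufm by 2.67 and 2.65. Gfm1, the mitochondrial translocase, rose by 2.71 and 2.78 in the same groups. Of 9 release and recycling factors, 5 were higher in p53KO_3dai and 3 in p53WT_3dai cells, 1 in p53KO_G2 and 2 in p53WT_G2 cells, and 1 (Etf1, -0.77) was lower in p53WT_G2 cells. Denr, which helps to recycle the small subunit, rose by 2.17 in p53KO_3dai and 2.06 in p53WT_3dai cells. Of 7 scaffold and editing genes of the synthetases, 4 were higher in p53KO_3dai, p53WT_3dai and p53KO_G2 cells each and 1 in p53WT_G2 cells, with 0 lower. Aimp1, a scaffold of the multi-synthetase complex, was at 1.89 in p53KO_3dai and 2.26 in p53WT_3dai cells.

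In the 7 genes of hypusination and polyamines that were tested, 4 were higher and 1 lower in each 3dai group, and 1 and 1 in each G2 group. Dhps, which begins the hypusination of eIF5A, rose by 1.54 in p53KO_3dai and 2.14 in p53WT_3dai cells. Odc1, the first enzyme of polyamine synthesis, was lower by -1.18 in p53KO_3dai, -1.31 in p53WT_3dai, -1.47 in p53KO_G2 and -1.94 in p53WT_G2 cells. Of 19 mTORC1 genes and translation regulators, 9 were higher and 5 lower in p53KO_3dai, 7 and 3 in p53WT_3dai, 7 and 1 in p53KO_G2 and 4 and 1 in p53WT_G2 cells. Myc, a transcription factor known to drive genes of translation, was lower by -3.31 in p53KO_3dai and -2.44 in p53WT_3dai cells. Its FPKM varied within p53KO_3dai cells, at 47.2 ± 39.6 (SD, n = 3). Whether Myc bears on the members was not tested. In p53KO_3dai against p53WT_3dai cells 0 genes of these 6 lists were called, beside 0.00772% of all genes higher and 0.0772% lower.

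Some members cannot be measured cleanly by their symbol. In the GENCODE M21 annotation 31 of the 101 have an exon that overlaps another gene, and 20 of these overlap a gene measured in the files. Aars overlaps Exosc6 on the same strand over 1326 bases. Eif4a2 and Rfc4 overlap on opposite strands over 167 bases, Iars2 and Rab3gap2 over 2034 bases, and Mars and Ddit3 over 68 bases. Also on opposite strands, Eif2ak1 and Aimp2 overlap over 487 bases and Eef2kmt and Alg1 over 472 bases. Eif5b and Rev1 do so over 413 bases and Eif2b4 and Snx17 over 204 bases. The library kit keeps strand, but whether the counting used it is not stated, so reads of such pairs may have been assigned to either gene.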

How the data were processed

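The 16 libraries of sorted mouse muscle cells in 6 groups (3, 3, 3, 3, 2 and 2) were measured by RNA sequencing. The deposited values are FPKM per gene, made by the authors with STAR, Cufflinks and Cuffdiff on mm10 per the submitters' processing notes; their versions, the read depth and the strand setting are not given, so the precision that depth gives is unknown. Groups follow the labels. Of 24341 genes, 12954 reached 1 FPKM in 2 or more libraries. Their log2(FPKM + 1) values in all 6 groups were fitted in 1 model with limma 3.58.1 (R 4.3.3; lmFit, contrasts.fit and eBayes with a variance trend). Each comparison was adjusted by Benjamini-Hochberg over all genes tested and called at 0.05. The 11 comparisons were 3dai or G2 against no suffix and G2 against 3dai in each genotype, p53KO against p53WT in each state, and the differences of the genotype effect in 3dai or G2 from that with no suffix. All differences are tested with limma's moderated test. The fit was tested on simulated data before use. Tables were joined with pandas 2.3.3 (Python 3.11.15).

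The members and gene lists were chosen with earlier results of these data known. Genes named in the text are a fixed set of regulators, paralog pairs and highest members, up to 10 called members higher and 10 lower per comparison by size with a mean of at least 5 FPKM in the higher group, the 4 smallest p where none was called, the extremes of each role, and up to 3 called genes per neighbouring list. Genes outside this rule are Eef1b2, Eef1d, Cars, Farsa and the overlapping neighbours, chosen after their values were seen. A gene that the rule named is not reported here. Alternatives were a pseudocount of 0.1, no filter, or one at a mean of 5 FPKM, quantile and median-of-ratios scaling, library weights, a replicate block, fits of the compared groups alone, values of a status other than OK set to missing, and leaving out each library. Equal sums without Mir6236 and leaving out p53KO_3dai replicates 2 and 3 were chosen after seeing the data. Same-numbered libraries had correlations of their deviations from group means of -0.159 to 0.127, so the numbers were not taken as pairs. Promoters are RefSeq (GRCm38.p6) sequences and overlaps come from GENCODE M21. No sequencing reads were analysed here.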

Additional observations from a re-analysis of the deposited data

How the results depend on the processing

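Under the alternatives tried no called member changed sign. The calls that held in every alternative were 43 of 70 in p53KO_3dai and 42 of 60 in p53WT_3dai cells against no suffix, 7 of 36 in p53KO_G2 and 9 of 32 in p53WT_G2 cells, and 2 of 25 in p53KO and 6 of 27 in p53WT cells for G2 against 3dai. In p53KO_3dai against p53KO cells, 42 members were higher with p53KO_3dai replicates 2 and 3 left out and 3 lower when the compared groups were fitted alone. In p53WT_3dai against p53WT cells, 10 were lower with quantile or median-of-ratios scaling and 7 with equal sums. In p53KO_G2 against p53KO cells, 16 were higher and 9 lower with quantile normalization, 9 and 12 with median of ratios, 9 higher with the groups alone and 5 lower with library weights. In p53WT_G2 against p53WT cells, 15 were higher with quantile normalization, 11 higher and 15 lower with median of ratios and 17 higher with the groups alone. In p53KO_G2 against p53KO_3dai cells, 1 was higher with quantile normalization, 1 higher and 35 lower with median of ratios, 0 higher with the groups alone, and 0 higher and 4 lower with p53KO_3dai replicates 2 and 3 left out. In p53WT_G2 against p53WT_3dai cells, 0 were higher with a pseudocount of 0.1, a filter at a mean of 5 FPKM, median of ratios or the replicate block, 2 higher and 46 lower with library weights, and 3 higher and 14 lower with equal sums. In p53KO_3dai against p53WT_3dai cells 4 were lower with library weights.

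Leaving out 1 library at a time gave 53 to 62 higher and 4 to 6 lower in p53KO_3dai and 46 to 56 higher and 3 to 5 lower in p53WT_3dai cells. It gave 8 to 27 higher and 3 to 6 lower in p53KO_G2 and 13 to 26 higher and 2 to 6 lower in p53WT_G2 cells. For G2 against 3dai it gave 0 to 2 higher and 10 to 23 lower in p53KO and 0 to 1 higher and 8 to 21 lower in p53WT cells. For p53KO_3dai against p53WT_3dai cells it gave 0 to 3 lower. With the replicate number as a block the counts were 63 higher and 6 lower in p53KO_3dai, 56 and 4 in p53WT_3dai, 28 and 3 in p53KO_G2 and 22 and 7 in p53WT_G2 cells, 2 and 24 in p53KO and 0 and 26 in p53WT cells for G2 against 3dai, and 0 in the other comparisons. The block changed no other count by over 1.5 times. The summed FPKM with median of ratios were 17056.3 in p53KO_3dai, 16189 in p53WT_3dai, 11852.2 in p53KO_G2, 11713.2 in p53WT_G2, 14835.6 in p53KO and 15274 in p53WT cells. The cause of these changes was not tested, and read depth, which limits the low members, is unknown.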
